A study of Mus musculus with 24 samples.

Results

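The 35 genes described here are genes of vascular endothelial cells, chosen by name: receptors for vessel growth factors, proteins of the junctions between endothelial cells, transcription factors of the endothelial lineage, Notch pathway genes and other transcripts known from the vessel lining. Of the 35, 34 had a probe well above background in the mouse channel on at least 6 of 24 arrays and could be compared between diets, out of 22322 features (13442 of them named genes) that passed the same filter. The remaining gene, Prox1, which encodes the transcription factor that defines lymphatic endothelium, was well above background on 0 of 24 arrays, so that among lymphatic genes only Flt4 was measured. The arrays held RNA from the epididymal white fat of 24 male C57BL/6JRcc mice, each housed on its own and aged 28 or 29 weeks. From an age of 8 or 9 weeks all were kept on a semi-synthetic diet with 40% of its energy as fat and little tryptophan (0.115%), the amino acid from which the body can also make the coenzyme NAD. In the No NR group (n = 12) this diet held 0 mg nicotinamide riboside per kg, and in the Ctrl NR group (n = 12) it held 30 mg per kg. Nicotinamide riboside is a form of vitamin B3 and a precursor of NAD. The diets were given for 18 weeks after an initial period on Ctrl NR for all mice, and every mouse was fasted and then refed for 4 hours before tissue was taken. The question of the series is how white fat responds at the RNA level when vitamin B3 is withdrawn.

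White adipose tissue is densely supplied with capillaries, and endothelial cells carry fatty acids and hormones between the blood and the fat cells. Vascular endothelial growth factors act on the receptor tyrosine kinases encoded by Kdr, Flt1 and Flt4, angiopoietins act on the receptor encoded by Tek, and the Notch ligand encoded by Dll4 marks arterial and sprouting cells. Adherens and tight junctions built on VE-cadherin and claudin 5 seal the vessel wall, and factors of the ETS and SOXF families maintain endothelial gene expression.

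On each array the red dye (Cy5) carried the RNA of 1 mouse and the green dye (Cy3) a pool of fat RNA that also took in other diets and 4 female samples. A value below is the log2 ratio of the mouse over that pool, so that 0 means a signal equal to the pool. A difference is the mean log2 ratio of the No NR mice minus that of the Ctrl NR mice. Per array, between 34.5% and 50.7% of spots exceeded background clearly (median 44.7%), and the 5 slides each carried both diets. Endothelial transcripts were detected in this RNA of whole fat: by the same flag that admitted the genes, 31 of the 34, among them Cdh5, Pecam1 and Kdr, were well above background on all 24 arrays. Flt4 was above background in 5 of 12 No NR and 6 of 12 Ctrl NR mice, Clec14a in 12 of 12 and 10 of 12, and Dll4 in 11 of 12 of each diet, and their differences rest partly on dim spots. In RNA of whole tissue, fewer endothelial cells and less RNA per endothelial cell cannot be told apart.

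Most of the 34 endothelial genes were somewhat lower in No NR than in Ctrl NR fat, and no single gene passed the test after adjustment. The log2 difference was below 0 for 29 genes (85.3%), against 52.4% of all features, and its median was -0.14, against -0.0064 over all features. In limma's moderated test with Benjamini-Hochberg adjustment over 22322 features, 0 of the 34 genes and 0 features in all (0%) had an adjusted p under 0.05. The lowest adjusted p of an endothelial gene was 0.134, for Erg, and the lowest of any feature was 0.0573. At an unadjusted p under 0.05, 9 of the 34 genes (26.5%) were lower in No NR mice, where 7.00% of all features were, and 1 gene (2.94%) was higher, where 6.70% of all features were. The 9 genes lower at that level were Erg, Cdh5, Kdr, Rasip1, Cldn5, Egfl7, Eng, Dll4 and Icam2, and the gene that was higher was Clec14a. The ranges of the diets overlapped for every one of the 34 genes. Standard errors lay between 0.0584 and 0.174 with a median of 0.102.

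That count of 9 rested on few mice. It was 16 with the 3 mice of slide 1 left out, against 7.95% of all features. It was 1 of 34 (2.94%) with the 5 mice of slide 5 left out, below the 3.97% of all features under that omission. It was 4 without No NR mouse 114 or without Ctrl NR mouse 97, and 5 without No NR mouse 81 or without Ctrl NR mouse 64, 75 or 84. Centring each array on its median in place of loess normalization left 2 (against 0.918% of all features), and weighting the arrays by their quality gave 18 (against 10.2%). The count of genes below 0 stayed between 24 and 31 under these and all other settings.

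**Figure D1:**
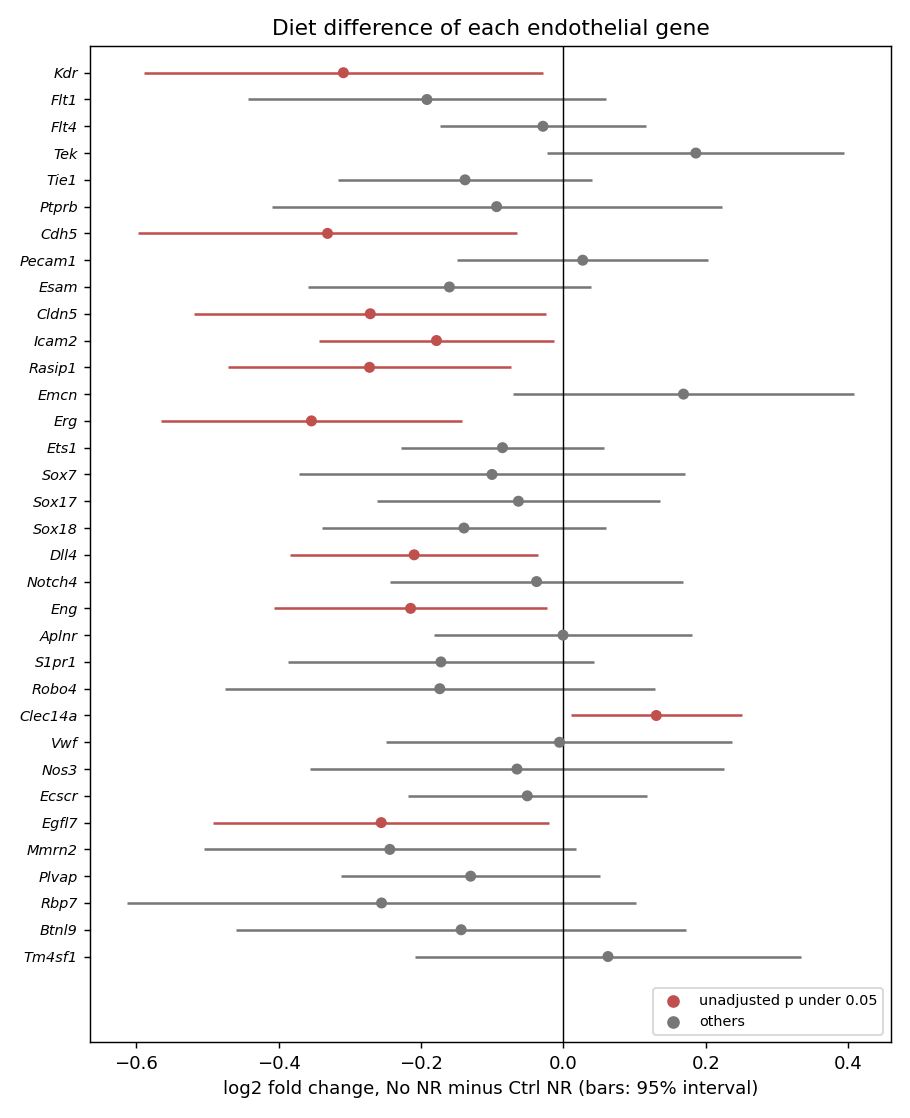
Difference between diets for each of the 34 endothelial genes, grouped by role. Points are the log2 difference, No NR minus Ctrl NR, bars are the 95% intervals of limma's fit over 12 mice per diet, and red marks an unadjusted p under 0.05. The points of 29 genes lie left of 0, and Erg at -0.35 lies farthest from it.

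Among the transcription factors, all 5 measured genes had a difference below 0, and 1 of them had an unadjusted p under 0.05. Over all features 52.4% were below 0 and 7.00% were lower at that level. The groups by role are small, and no test was made of their counts. Erg encodes an ETS-family factor that maintains endothelial identity and the expression of junction genes. Its log2 ratio ran from -0.63 over a median of -0.34 to 0.12 in No NR mice, against -0.37, 0.04 and 0.46 in Ctrl NR mice. Although the ranges overlapped, 11 of 12 No NR mice lay below the Ctrl NR median and 6 lay below the lowest Ctrl NR mouse. The difference was -0.35 (SE 0.103), a fold of 0.783, with limma's adjusted p at 0.134, and it was lower on all 5 slides. A dimmer Erg probe, well above background on 11 arrays, differed by -0.20 (SE 0.0765) in the same direction. With the arrays weighted by their quality the difference was -0.40, at an adjusted p of 0.0411 by limma. Under that weighting 253 features of the whole array had an adjusted p under 0.05.

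The other factors differed less. Ets1, a second ETS-family member that is also expressed in lymphocytes, averaged -0.07 ± 0.126 in No NR and 0.01 ± 0.197 in Ctrl NR mice (SD, n = 12 each), a difference of -0.086. A further Ets1 probe differed by -0.26 (SE 0.0743) and did not follow the brighter probe from mouse to mouse (r = -0.157 within diets), so the gene's difference depends on the probe. Sox7, Sox17 and Sox18 encode the SOXF factors, which act together in arterial and lymphatic development. Sox18 differed by -0.14 (SE 0.0974), with medians of -0.08 in No NR and 0.17 in Ctrl NR mice, and 6 Ctrl NR mice lay above the highest No NR mouse. Sox7 differed by -0.10 (SE 0.132) and ranged from -0.57 to 0.49 in No NR mice and from -0.56 to 0.71 in Ctrl NR mice. Sox17 differed by -0.063 (SE 0.0967), and the probe not used for it differed by 0.097, so the direction of Sox17 was not settled.

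Promoter sequence was at hand for 19 of the 35 genes, in 24 windows of 250 bases upstream of a RefSeq transcription start (build GRCm38.p6). Those of Rasip1 and Dll4 are shown as lower genes that followed each other from mouse to mouse, that of Clec14a as the single gene on the opposite side at an unadjusted p under 0.05, and that of Flt4 as the measured lymphatic gene. Capitals mark GGAA or its reverse complement TTCC, the core that ETS factors such as ERG bind.
Rasip1, chr7:45627287-45627536, plus strand: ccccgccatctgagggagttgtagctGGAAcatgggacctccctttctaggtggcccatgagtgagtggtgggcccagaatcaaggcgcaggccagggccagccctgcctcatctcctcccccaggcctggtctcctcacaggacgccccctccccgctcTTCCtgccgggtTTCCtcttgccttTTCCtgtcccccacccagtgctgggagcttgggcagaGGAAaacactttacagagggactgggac
Dll4, chr2:119325534-119325783, plus strand: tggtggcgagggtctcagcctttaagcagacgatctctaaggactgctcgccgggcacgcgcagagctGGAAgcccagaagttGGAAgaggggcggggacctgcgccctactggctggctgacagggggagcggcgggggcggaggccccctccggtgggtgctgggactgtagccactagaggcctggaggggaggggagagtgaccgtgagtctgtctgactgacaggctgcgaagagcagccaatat
Clec14a, chr12:58269259-58269508, minus strand: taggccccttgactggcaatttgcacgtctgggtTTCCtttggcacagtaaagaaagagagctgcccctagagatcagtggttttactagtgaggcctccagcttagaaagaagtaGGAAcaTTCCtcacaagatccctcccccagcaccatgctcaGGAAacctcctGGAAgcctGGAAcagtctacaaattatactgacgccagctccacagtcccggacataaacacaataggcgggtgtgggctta
Flt4, chr11:49609429-49609678, plus strand: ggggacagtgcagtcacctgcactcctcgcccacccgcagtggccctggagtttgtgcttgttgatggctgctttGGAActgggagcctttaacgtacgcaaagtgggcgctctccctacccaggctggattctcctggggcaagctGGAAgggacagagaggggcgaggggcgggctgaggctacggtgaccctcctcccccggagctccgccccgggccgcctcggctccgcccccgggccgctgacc
The core occurred 5 times in the Rasip1 window, 2 times in that of Dll4, 6 times in that of Clec14a and 2 times in that of Flt4. A match to 4 bases is common: searched on both strands, 22 of the 24 endothelial windows held one (91.67%), as did 93.45% of 32851 windows of all genes. The longer ETS form AGGAAG or CTTCCT, which contains the core, was found in 13 of 24 endothelial windows (54.17%) and in 29.48% of all windows. The SOX form AACAAT or ATTGTT was found in 3 of 24 (12.5%) and in 9.424%. Windows of the same gene overlap, the genes were chosen by name, and no test was made of these shares.

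The VEGF receptors were all below 0, as were 52.4% of all features, and Flt4 lay close to 0 at -0.029. Kdr encodes VEGFR2, the main signalling receptor for VEGF-A on blood vessels. Its log2 ratio ran from -0.54 over a median of -0.22 to 0.25 in No NR mice, against -0.94, 0.21 and 0.63 in Ctrl NR mice. The lowest value of all belonged to Ctrl NR mouse 117, while 5 Ctrl NR mice lay above the highest No NR mouse. The difference was -0.31 (SE 0.136, limma adjusted p 0.314). The Kdr probe is spotted 10 times on each array, and the spread of those spots within an array (median SD 0.112) was smaller than the spread between mice of the same diet (SD 0.358). A different Kdr probe differed by only -0.12 (SE 0.126) and followed the first with r = 0.417 within diets. Flt1 encodes VEGFR1, which binds VEGF-A and placental growth factor and limits their action. Flt1 ran from -1.05 over -0.35 to 0.01 in No NR mice, against -0.63, -0.25 and 0.43 in Ctrl NR mice, a difference of -0.19 (SE 0.122). The groups overlapped broadly, with 8 of 12 No NR mice below the Ctrl NR median.

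Flt4, the receptor for VEGF-C that is restricted largely to lymphatic vessels in adult tissue, differed least of the 3. It ran from -0.23 over -0.02 to 0.26 in No NR mice, against -0.29, -0.0020 and 0.33 in Ctrl NR mice, a difference of -0.029 (SE 0.0704). To set the lymphatic gene against a blood vessel gene within each mouse, the log2 ratio of Kdr was subtracted from that of Flt4. Since Flt4 differed by only -0.029 and Kdr by -0.31, a diet difference of this contrast is mostly that of Kdr. Flt4 was also well above background on only 11 arrays. This contrast averaged 0.16 ± 0.262 in No NR mice and -0.12 ± 0.367 in Ctrl NR mice (SD, n = 12 each), a difference of 0.28 with a permutation p of 0.0446 (2-sided, 100000 resamples). It depended on the setting. Without slide 1 it was 0.36 (p = 0.00741) and without Ctrl NR mouse 117 it was 0.35 (p = 0.00717). With the other Kdr probe it was 0.10 (p = 0.581), and without slide 5 it was 0.15 (p = 0.303). With the diet labels shuffled only within slides, the same 0.28 had p = 0.0533, and the difference itself was not adjusted for slide. Leaving out any of No NR mice 70, 81, 90, 94, 98, 110 and 114 or Ctrl NR mice 64, 75, 77, 84, 95, 97 and 115 took its permutation p above the threshold, up to 0.0781. Against the mean of the 33 blood vessel genes, Flt4 averaged 0.094 ± 0.187 in No NR and -0.00084 ± 0.167 in Ctrl NR mice. Of 15 further genes known from lymphatic vessels 12 were measured, of which 9 were lower and 3 higher, and 1 was lower at an unadjusted p under 0.05. Over all features the shares were 52.4% lower and 7.00% lower at that level. Lyve1, a hyaluronan receptor of lymphatic vessels and of some macrophages, averaged -0.17 ± 0.553 in No NR and -0.01 ± 0.639 in Ctrl NR mice.

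The angiopoietin receptors were split. Tek encodes TIE2, the receptor for angiopoietins, and had the highest difference of the 34 genes at 0.19 (SE 0.102, limma adjusted p 0.422). Tek ran from -0.33 over -0.09 to 0.28 in No NR mice, against -1.05, -0.21 and 0.16 in Ctrl NR mice. Its lowest value lay in Ctrl NR mouse 64, and 2 of 12 No NR mice lay below the Ctrl NR median. Tie1, the related receptor that has no known ligand of its own and modulates TIE2, differed in the opposite direction by -0.14 (SE 0.0867), with medians of -0.04 in No NR and 0.21 in Ctrl NR mice. Ptprb encodes VE-PTP, the phosphatase that acts on TIE2 and VE-cadherin. It had a wide spread, from -0.81 to 0.37 in No NR mice and from -0.94 to 0.58 in Ctrl NR mice, and a difference of -0.094 (SE 0.154). Its other measured probe differed by -0.19 (SE 0.13) and followed the first with r = 0.706 within diets.

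Both Notch genes were below 0, as were 52.4% of all features. Dll4 ran from -0.39 over -0.09 to 0.17 in No NR mice, against -0.36, 0.11 and 0.55 in Ctrl NR mice. All but 1 of the No NR mice lay below the Ctrl NR median, and 5 Ctrl NR mice lay above every No NR mouse. The difference was -0.21 (SE 0.085, limma adjusted p 0.274), and on slide 1, with 1 No NR and 2 Ctrl NR mice, it was 0.23. Notch4, the Notch receptor expressed mainly in endothelium, differed by -0.038 (SE 0.1), with medians of 0.07 in No NR and 0.17 in Ctrl NR mice.

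Among the other receptors, Eng encodes endoglin, a co-receptor for BMP9 and BMP10. It ran from -0.68 over -0.40 to 0.12 in No NR mice, against -0.47, -0.17 and 0.18 in Ctrl NR mice. The No NR group reached lower, with 6 mice below the lowest Ctrl NR mouse, and the difference was -0.21 (SE 0.0931, limma adjusted p 0.305). S1pr1, the sphingosine-1-phosphate receptor that stabilises junctions, differed by -0.17 (SE 0.105), and Robo4, a receptor that restrains VEGF signalling, by -0.17 (SE 0.147). Robo4 spread more in No NR mice, from -0.86 to 0.70, than in Ctrl NR mice, from -0.50 to 0.37, and 5 No NR mice lay below every Ctrl NR mouse. Aplnr, the apelin receptor, averaged -0.061 ± 0.175 in No NR and -0.060 ± 0.259 in Ctrl NR mice.

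Clec14a, a C-type lectin of the vessel lining that binds the matrix protein multimerin 2, went the other way. It ran from -0.35 over -0.08 to 0.13 in No NR mice, against -0.41, -0.21 and -0.05 in Ctrl NR mice. With 10 of 12 No NR mice at or above the Ctrl NR median, the difference was 0.13 (SE 0.0584, limma adjusted p 0.32). The count of 1 gene higher at an unadjusted p under 0.05 did not last either: it was 0 without No NR mouse 61, 74, 78 or 101 or Ctrl NR mouse 75, 84, 88, 97 or 108, and 2 without Ctrl NR mouse 77, 104 or 117. A second Clec14a probe was well above background on 0 arrays. Mmrn2, which encodes multimerin 2, the partner of this lectin, differed by -0.24 (SE 0.127), with medians of -0.45 in No NR and -0.11 in Ctrl NR mice, and 6 Ctrl NR mice lay above the highest No NR mouse.

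Of the 7 junction and adhesion genes 5 were below 0, and 4 of these at an unadjusted p under 0.05. Over all features the shares were 52.4% and 7.00%. Cdh5 encodes VE-cadherin, the adhesion molecule of endothelial adherens junctions. Its log2 ratio ran from -0.62 over 0.05 to 0.23 in No NR mice, against -0.36, 0.46 and 0.86 in Ctrl NR mice. Every No NR mouse lay below the Ctrl NR median and 8 of the 12 Ctrl NR mice lay above the highest No NR mouse. The difference was -0.33 (SE 0.13), a fold of 0.795, with a limma adjusted p of 0.263. Rasip1 encodes a Ras-interacting protein needed for the vessel lumen and for junction strength. Rasip1 ran from -0.30 over -0.19 to 0.11 in No NR mice, against -0.61, 0.15 and 0.47 in Ctrl NR mice. The 12 No NR mice again all lay below the Ctrl NR median, yet the lowest value was that of Ctrl NR mouse 117. The difference was -0.27 (SE 0.0966, limma adjusted p 0.21), and without Ctrl NR mouse 117 it was -0.34 at an adjusted p of 0.0417, the only omission of a mouse that took an endothelial gene past the threshold. Under that omission 203 features of the whole array passed it.

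Cldn5, claudin 5 of endothelial tight junctions, ran from -0.56 over -0.16 to 0.29 in No NR mice, against -0.56, 0.16 and 0.58 in Ctrl NR mice. The bottoms of the ranges met, and 10 of 12 No NR mice lay below the Ctrl NR median, with a difference of -0.27 (SE 0.12, limma adjusted p 0.316). Icam2, an adhesion molecule present on resting endothelium, ran from -0.48 over -0.03 to 0.08 in No NR mice, against -0.37, 0.21 and 0.34 in Ctrl NR mice. Again all 12 No NR mice lay below the Ctrl NR median and 8 Ctrl NR mice above the highest No NR mouse, and the difference of -0.18 (SE 0.0805, limma adjusted p 0.324) was below 0 on all 5 slides. Esam, another junction molecule, differed by -0.16 (SE 0.0965). Pecam1, the widely used marker CD31, averaged -0.0052 ± 0.206 in No NR and -0.032 ± 0.224 in Ctrl NR mice, a difference of 0.027 whose sign turned under other settings. Emcn, the sialomucin endomucin of veins and capillaries, differed by 0.17 (SE 0.117), and its range was -0.26 to 0.37 in No NR mice against -0.89 to 0.36 in Ctrl NR mice.

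The last group holds secreted, metabolic and surface proteins, of which 8 of 9 were below 0 and 1 at an unadjusted p under 0.05. Over all features the shares were 52.4% and 7.00%. The gene at that level was Egfl7, a secreted protein of the endothelial matrix. It ran from -0.68 over -0.20 to 0.37 in No NR mice, against -0.46, 0.07 and 0.53 in Ctrl NR mice. The overlap was wide, with 10 of 12 No NR mice below the Ctrl NR median, and the difference was -0.26 (SE 0.115, limma adjusted p 0.321). Rbp7, a retinol-binding protein of fat capillaries, had a difference of the same size, -0.26, with the largest standard error of the 34 genes (0.174), since it spanned -0.60 to 0.58 in No NR and -0.53 to 0.89 in Ctrl NR mice. Btnl9, a butyrophilin-like surface protein of capillary endothelium, differed by -0.14 (SE 0.154) and Plvap, which forms the diaphragms of fenestrae and caveolae, by -0.13 (SE 0.0886). A second Plvap probe differed by -0.15 (SE 0.0735).

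For the genes of vessel tone and haemostasis the diets lay closer. Nos3, the endothelial nitric oxide synthase, differed by -0.065 (SE 0.142), and its other probe by -0.064. Vwf, von Willebrand factor, differed by -0.0056 (SE 0.118), and its range was -0.68 to 0.44 in No NR and -0.47 to 0.52 in Ctrl NR mice. Ecscr, a surface regulator of endothelial movement, differed by -0.051 (SE 0.0817), and Tm4sf1, a tetraspanin-like protein of endothelial protrusions, by 0.062 (SE 0.132). The signs of the Vwf, Aplnr and Tm4sf1 differences turned under other settings, and those of Nos3 and Ecscr turned without slide 5.

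**Figure D2:**
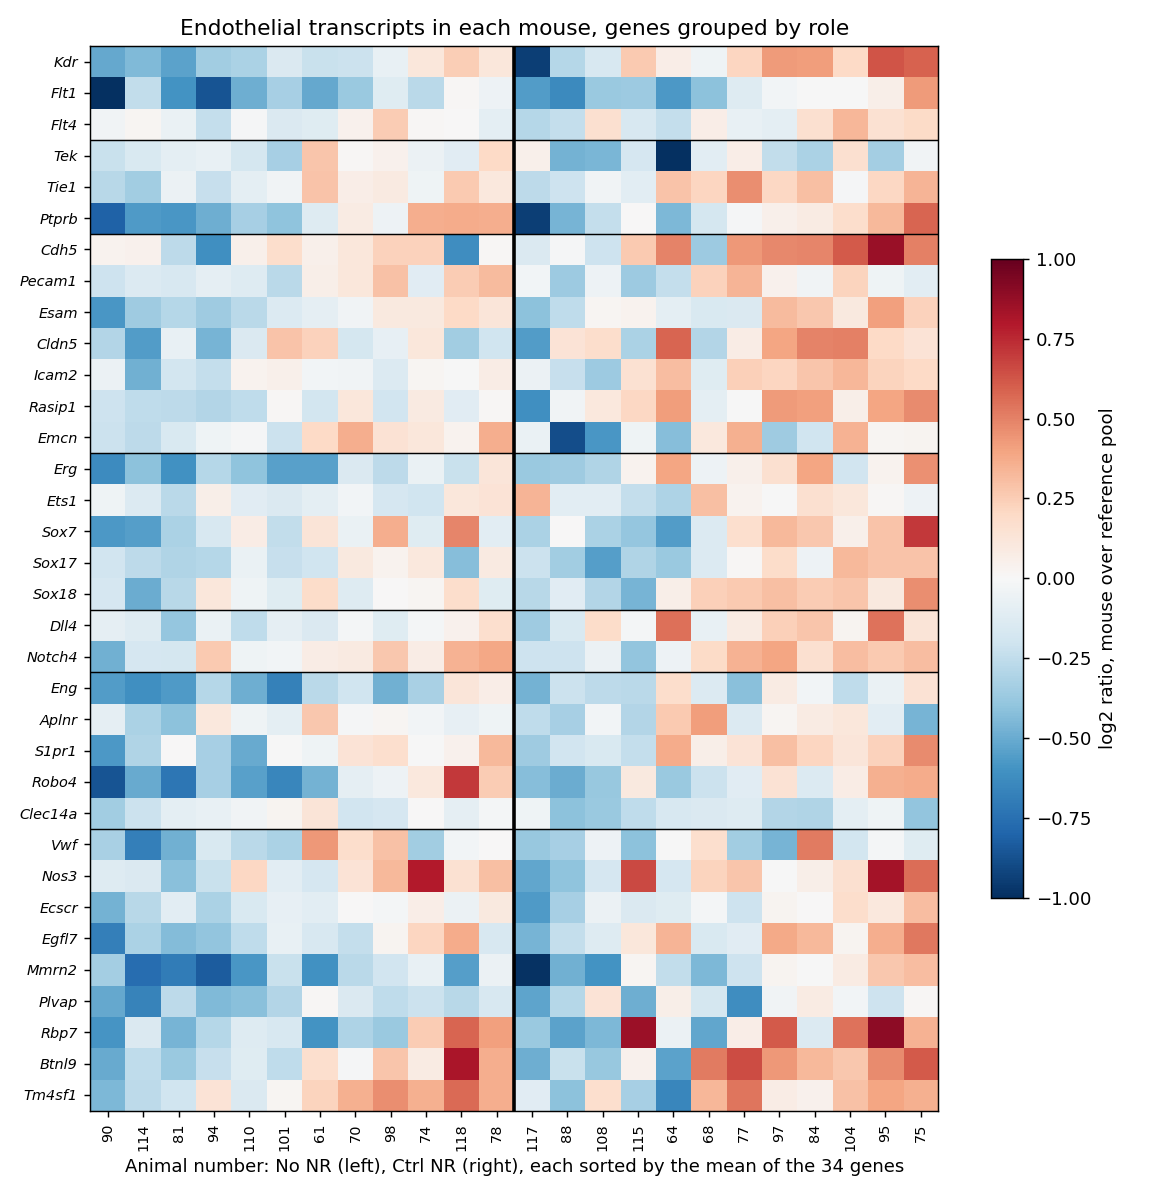
Log2 ratio of mouse over pool for the 34 genes (rows, grouped by role) in 12 No NR mice (left of the black line) and 12 Ctrl NR mice (right), with animal numbers along the bottom and mice sorted by their mean over the genes. Blue is below and red above the pool. The means run from -0.38 to 0.11 in No NR mice and from -0.36 to 0.26 in Ctrl NR mice, and most genes of a mouse share a colour.

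Averaged over the 34 genes, a mouse had a log2 ratio of -0.12 ± 0.174 in the No NR group and -0.0016 ± 0.204 in the Ctrl NR group (SD, n = 12 each). The No NR group ranged from -0.38 in mouse 90 to 0.11 in mouse 78, and the Ctrl NR group from -0.36 in mouse 117 to 0.26 in mouse 75. The spread within each diet thus exceeded the distance between their means.

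The slides differed in how the diets compared. The median difference of the 34 genes was -0.21 on slide 2 with 33 genes below 0, -0.15 on slide 4 with 27 below 0 and -0.43 on slide 5 with 30 below 0. It was 0.32 on slide 1 with 6 genes below 0 and 0.027 on slide 3 with 14 below 0. Slide 1 held 1 No NR mouse, number 118, and 2 Ctrl NR mice, numbers 115 and 117, of which 117 had the lowest mean over the genes in its diet. Only Erg and Icam2 were below 0 on all 5 slides, and 13 further genes were on 4. The matching shares over all features are not given here, so these counts do not set the endothelial genes apart. With slide as a fixed block the difference was -0.34 for Erg (limma adjusted p 0.218), -0.37 for Cdh5 (0.262), -0.29 for Rasip1 (0.251) and -0.32 for Cldn5 (0.253), and the median over the 34 genes was -0.13. With slide 1 left out the median was -0.22, and with slide 5 left out it was -0.054.

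**Figure D3:**
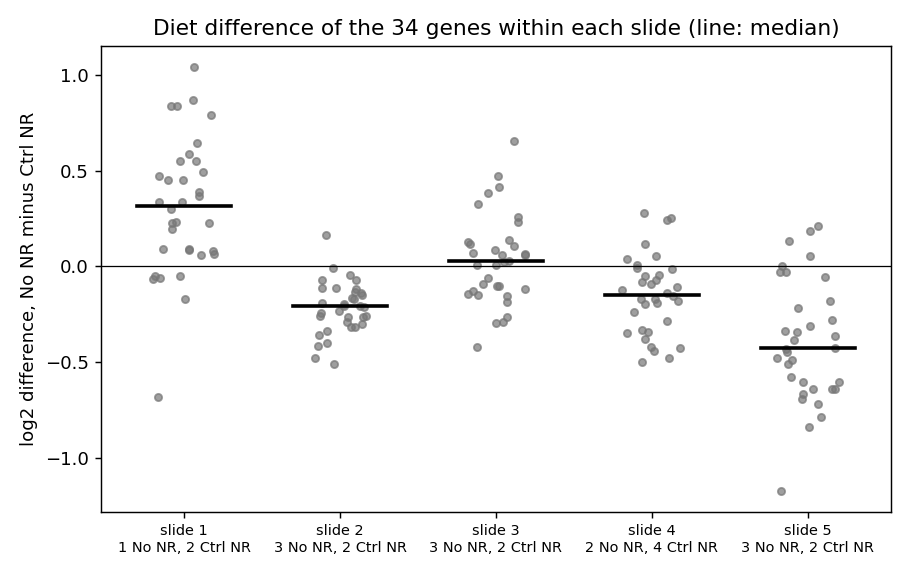
Difference between diets within each of the 5 slides. Each point is 1 of the 34 genes, the vertical axis is the mean log2 ratio of the No NR mice minus that of the Ctrl NR mice of that slide, and the black line is the median. The medians run from -0.43 on slide 5 to 0.32 on slide 1.

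The endothelial genes varied together from mouse to mouse. After the diet means were removed, the 561 pairs of the 34 genes had a median Pearson correlation of 0.433 over the 24 mice, 520 pairs (92.7%) were above 0, and 231 (41.2%) were above 0.5. These correlations are a description, since all genes of a mouse come from 1 hybridisation and share its dye ratio. Ptprb followed the mean of the other genes most closely (r = 0.930), then Kdr (0.894), Esam (0.891) and Ecscr (0.856). The highest pairs were Kdr with Ptprb (0.895), Esam with Ptprb (0.889) and Robo4 with Ptprb (0.881). At the other end stood Ets1 (0.0991 with the mean of the others), Aplnr (0.209), Clec14a (0.215) and Tek (0.270). The pairs Rasip1 with Ets1 (-0.410), Cldn5 with Ets1 (-0.408) and Tek with Dll4 (-0.407) were the lowest.

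Some genes kept closer company with a few partners than with the whole. Rasip1 was the gene nearest to Dll4 (0.780), Mmrn2 the nearest to Cdh5 (0.760) and Eng and Erg were nearest to each other (0.733). Tek and Emcn, both higher in No NR mice, were likewise nearest to each other (0.725). Plvap and Cldn5 formed another such pair (0.695), and Pecam1 was nearest to Tm4sf1 (0.793). Cdh5 followed the mean of the other genes in Ctrl NR mice (r = 0.740) but not in No NR mice (0.0460), a contrast that was not tested.

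**Figure D4:**
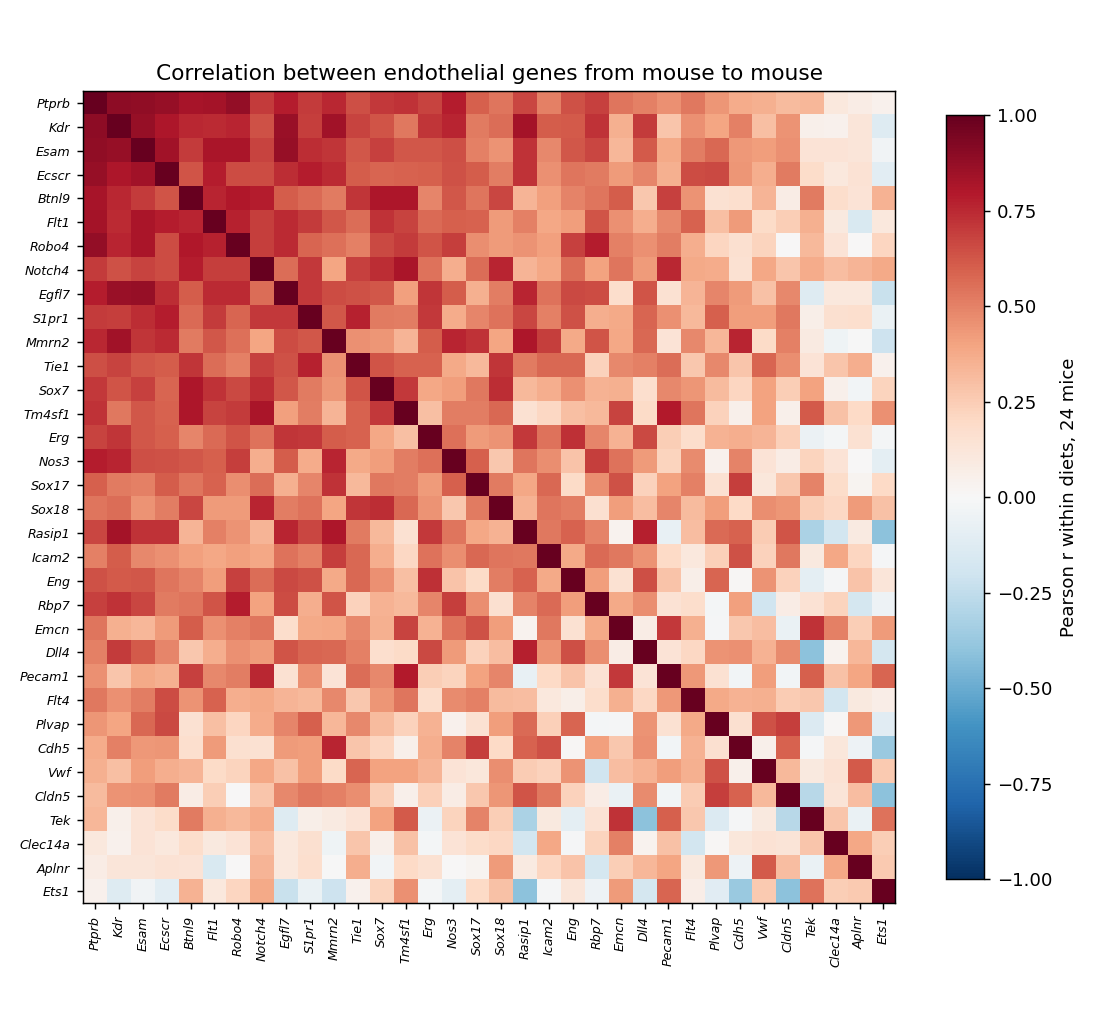
Pearson correlation between each pair of the 34 endothelial genes over 24 mice after removal of the diet means, with genes sorted by their correlation with the mean of the other genes. Red is above and blue below 0. Ptprb, Kdr and Esam stand at the upper left among the red cells, and Tek, Clec14a, Aplnr and Ets1 at the lower right, where pale and blue cells collect.

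Markers of other cell types moved with these genes. Of 27 macrophage markers 25 were measured, 23 higher and 2 lower in No NR mice (52.4% of all features were lower), with a median difference of 0.25. Their mean log2 ratio ranged from -1.05 to 0.62 in No NR mice and from -1.60 to 0.67 in Ctrl NR mice. The defining markers Adgre1 and Csf1r averaged -0.26 ± 0.939 and -0.22 ± 0.437 in No NR mice, against -0.70 ± 1.25 and -0.43 ± 0.585 in Ctrl NR mice, and the defining marker Cd68 was not analysed here. Across the 24 mice, 32 of the 34 endothelial genes had a correlation below 0 with that macrophage mean. Of these, 23 had a permutation p under 0.05 after Benjamini-Hochberg adjustment over the 34 relations, and 0 genes passed above 0. Among 22297 features outside the macrophage list, 12.2% had a correlation at or below the weakest of those 23 (Dll4, r = -0.446), against 67.6% of the endothelial genes, and 47.7% had one below 0. These tests were not planned, and the marker list was chosen with earlier results of these data known, so their p-values describe the relation only. The adipocyte mean, given below, had relations of similar size and opposite sign with Nos3, Robo4 and Ptprb. A relation to macrophage markers cannot be told apart from it here. The share of macrophages in the tissue and its part in the diet differences of the endothelial genes were not tested.

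The relation differed in strength between endothelial genes. Nos3 had r = -0.886 and rho = -0.876 (adjusted permutation p 5.67e-05 for r and 6.8e-05 for rho), with r = -0.844 once the 2 mice most distant from the median macrophage mean were omitted, -0.813 in No NR mice, -0.943 in Ctrl NR mice and -0.939 after slide means were removed. For Robo4, r was -0.852 and rho -0.872, and r was -0.861 without the 2 mice, -0.890 in No NR, -0.872 in Ctrl NR and -0.843 after removal of slide means. Ptprb (r = -0.833, rho = -0.859), Rbp7 (r = -0.804, rho = -0.777) and Kdr (r = -0.785, rho = -0.854) came next, and each of these 5 reached an unadjusted p of 1e-05 for r, the smallest that the resamples can give. Without the same 2 mice r was -0.877 for Ptprb, -0.715 for Rbp7 and -0.756 for Kdr. Single slides held 3 to 6 mice, too few for a value of their own.

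Of the 9 genes lower in No NR fat at an unadjusted p under 0.05, 6 had such a relation past the threshold and 3 did not. Among all 34 genes it was 23 (67.6%), so the lower genes did not stand apart. The 6 were Kdr, given above, and Egfl7 (r = -0.697, rho = -0.773), Erg (r = -0.577, rho = -0.690), Rasip1 (r = -0.505, rho = -0.585), Icam2 (r = -0.490, rho = -0.531) and Dll4 (r = -0.446, rho = -0.617), the last 5 with adjusted permutation p from 0.000612 to 0.0423 for r. The other 3 were Cldn5, Cdh5 and Eng. Cldn5 had r = -0.108 and rho = -0.117 (adjusted permutation p 0.658 for r), Cdh5 had r = -0.433 and rho = -0.506 (adjusted permutation p 0.0501 for r and 0.0224 for rho), and Eng had r = -0.409 and rho = -0.429 (adjusted permutation p 0.0647 for r). With the 2 most extreme mice omitted, the Cdh5 value was r = -0.319, and it was -0.0575 in No NR and -0.602 in Ctrl NR mice. Erg had r = -0.577 also without the 2 mice. The values over 24 mice pool both diets. With diet means removed, r was -0.783 for Kdr, -0.683 for Egfl7, -0.567 for Erg, -0.470 for Rasip1, -0.450 for Icam2 and -0.400 for Dll4. It was -0.0210 for Cldn5, -0.385 for Cdh5 and -0.359 for Eng. Of the genes not lower at that level, Vwf (r = -0.123, rho = -0.203), Plvap (r = -0.107, rho = -0.243), Clec14a (r = -0.0109, rho = 0.0122) and Ets1 (r = 0.0052, rho = -0.066) showed no relation past the threshold, with adjusted permutation p from 0.643 to 0.982 for r. Nor did Pecam1 (r = -0.323), Sox18 (r = -0.286), Tek (r = -0.216) and Aplnr (r = 0.146), with adjusted permutation p from 0.164 to 0.583. The sign of r was the same in both diets for 30 of the 34 genes.

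**Figure D5:**
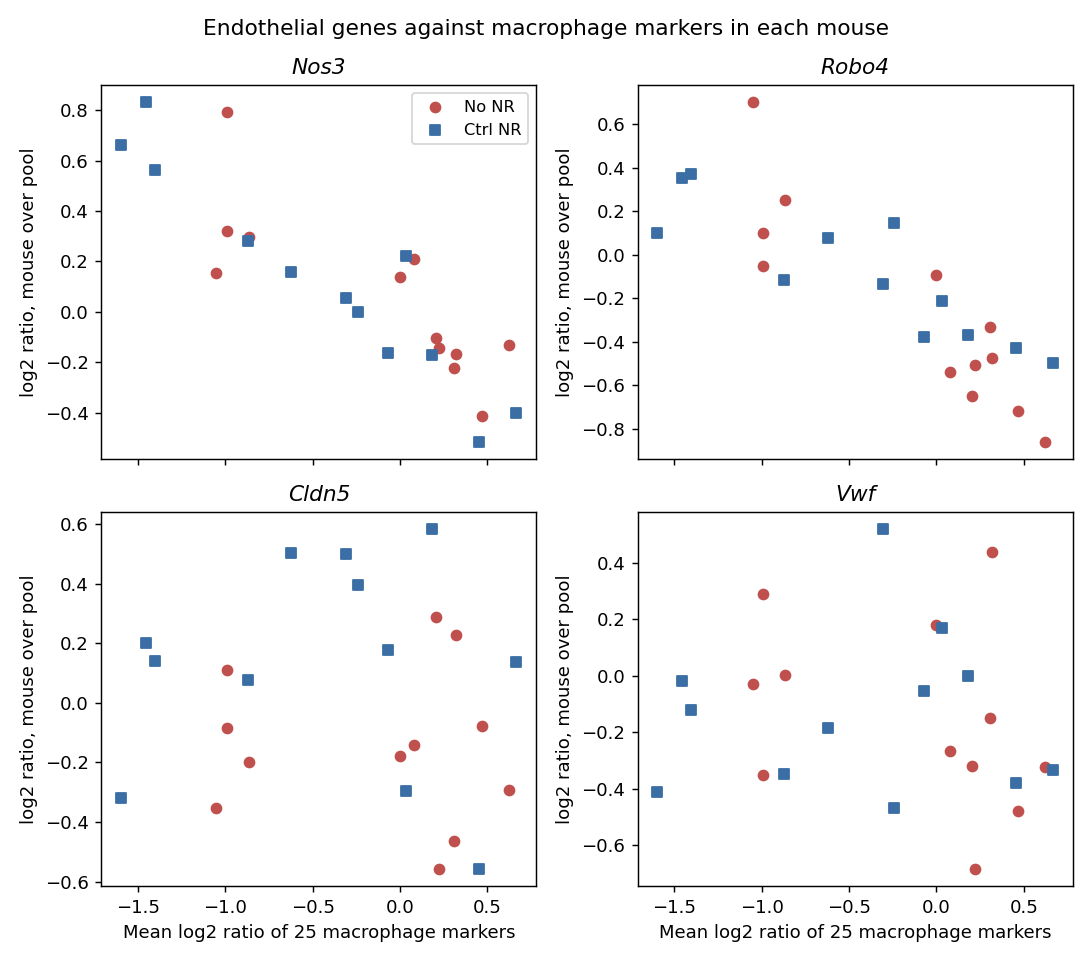
Log2 ratio of Nos3, Robo4, Cldn5 and Vwf against the mean log2 ratio of 25 macrophage markers, with red circles for 12 No NR mice and blue squares for 12 Ctrl NR mice. Nos3 (r = -0.886) and Robo4 (r = -0.852) descend from left to right in both diets, and Cldn5 (r = -0.108) and Vwf (r = -0.123) do not.

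Other marker lists were read in the same way, and their part in the endothelial differences was not tested. Their counts stand beside 52.4% of all features lower in No NR mice. Of 24 adipocyte markers 16 were lower and 8 higher in No NR mice, with a median difference of -0.10 and means per mouse from -0.56 to 0.63 in No NR and from -0.68 to 0.65 in Ctrl NR mice. Plin1, perilipin 1 of the fat droplet, averaged -0.17 ± 0.406 in No NR and -0.05 ± 0.397 in Ctrl NR mice, and Adipoq, adiponectin, 0.13 ± 0.606 in No NR and 0.12 ± 0.434 in Ctrl NR mice. Lep, leptin, was higher in No NR mice, at 0.13 ± 0.166 against -0.13 ± 0.542 in Ctrl NR mice (difference 0.26, SE 0.152). The adipocyte mean correlated within diets with Nos3 (0.896), Robo4 (0.883) and Ptprb (0.877), and hardly with Cldn5 (0.0285). For the macrophage mean the same values were -0.891, -0.845, -0.833 and -0.0210. The relations of the endothelial genes to these marker lists therefore cannot be told apart in these mice. Of 15 smooth muscle and pericyte markers 11 were lower (median -0.05), of 10 mesothelial markers 10 were lower (median -0.16), and of 15 stromal progenitor markers 13 were higher (median 0.09). Each of the 11 measured cell cycle genes was higher in No NR mice, with a median of 0.31 and means per mouse from -0.97 to 0.50 in No NR and from -1.11 to 0.57 in Ctrl NR mice. The lymphocyte list (9 of 13 lower, median -0.05), the platelet list (2 of 4 lower, median 0.0057) and the red blood cell list (4 of 4 lower, median -0.11) were also read. So were 5 measured epididymis and testis genes, all lower (median -0.42), whose mean per mouse ranged from -2.03 to 0.99 in No NR and from -1.71 to 2.51 in Ctrl NR mice.

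In the pathways around the 34 genes, no further gene passed limma's test after adjustment. The counts in this and the next paragraphs stand beside 52.4% of all features with a difference below 0. At an unadjusted p under 0.05, 7.00% of all features were lower and 6.70% higher. The lists are small, and several counts lie near these shares. Among 10 other Notch genes, 9 had lower means in No NR mice, and 3 reached an unadjusted p under 0.05. Jag2, a Notch ligand, averaged -0.24 ± 0.175 in No NR and 0.02 ± 0.193 in Ctrl NR mice, a difference of -0.26 (SE 0.0757, adjusted p 0.134). Dll1, another ligand, averaged -0.13 ± 0.108 in No NR and 0.02 ± 0.150 in Ctrl NR mice (difference -0.15). Of 15 other transcription factors of endothelium 12 were lower, 2 at an unadjusted p under 0.05. Tcf15, a factor of capillary endothelium in fat and muscle, averaged -0.40 ± 0.245 in No NR and -0.04 ± 0.349 in Ctrl NR mice, a difference of -0.36 (SE 0.116, adjusted p 0.179). Fli1, the ETS factor closest to Erg, averaged -0.18 ± 0.163 in No NR and -0.03 ± 0.148 in Ctrl NR mice (difference -0.15).

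For endoglin's pathway, 7 of 11 other BMP and ALK1 genes were lower, 2 at an unadjusted p under 0.05. These were Id1, with a mean of -0.28 ± 0.310 in No NR and 0.02 ± 0.304 in Ctrl NR mice (difference -0.29), and Id3, with -0.06 ± 0.153 in No NR and 0.10 ± 0.171 in Ctrl NR mice (difference -0.17). Both encode inhibitors of DNA binding that BMP signals induce. Of 28 further endothelial genes 17 were lower, 4 at an unadjusted p under 0.05. Gja4, the arterial gap junction protein connexin 37, averaged -0.22 ± 0.149 in No NR and 0.04 ± 0.256 in Ctrl NR mice (difference -0.25). Myct1 averaged -0.22 ± 0.178 in No NR and 0.07 ± 0.310 in Ctrl NR mice (difference -0.28). Cd34, which marks endothelium and stromal progenitors alike, differed by 0.13 (SE 0.109).

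The growth factors that act on these receptors had small differences. Of 7 other VEGF pathway genes 6 were lower, 0 at an unadjusted p under 0.05. Vegfa averaged 0.10 ± 0.207 in No NR and 0.13 ± 0.436 in Ctrl NR mice (difference -0.032), and Vegfc, the ligand of the Flt4 receptor, -0.22 ± 0.233 in No NR and -0.15 ± 0.314 in Ctrl NR mice (difference -0.076). Their co-receptors differed by -0.089 (Nrp1, SE 0.0896) and 0.22 (Nrp2, SE 0.115), and placental growth factor (Pgf) by -0.13. Of the angiopoietins, Angpt1, the activating ligand of TIE2, differed by 0.034 and Angpt2, its context-dependent antagonist, by -0.013. Angptl4, an inhibitor of lipoprotein lipase, differed by -0.15 (SE 0.161). Apln, the ligand of the apelin receptor, differed by -0.21 (SE 0.142).

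Genes of capillary lipid handling were split. Of 11 other genes 4 were lower and 7 higher, 1 of the higher ones at an unadjusted p under 0.05. That was Lpl, lipoprotein lipase, which fat cells make and capillaries display, with a mean of 0.35 ± 0.355 in No NR and 0.07 ± 0.305 in Ctrl NR mice (difference 0.28). Gpihbp1, the endothelial protein that holds this lipase in place, differed by -0.23 (SE 0.146), and Aqp7, a glycerol channel, by -0.13. In the sphingosine-1-phosphate list 2 of 6 other genes were lower, and Spns2, the exporter of that lipid, differed by -0.17 (SE 0.0767) at an unadjusted p under 0.05, while Sgpl1, which degrades it, differed by 0.14. Of 8 other genes of the shear stress response 7 were lower, 0 at that level, with Ece1, the endothelin-converting enzyme, at -0.17 and Cav1, caveolin 1, at -0.19. Of 7 other junction genes 4 were lower, among them Ctnnd1, p120 catenin, at -0.14 (SE 0.0622), and Radil, a partner of the Rasip1 protein, was at 0.12. Genes of endothelial activation were lower in 1 of 6, with P-selectin (Selp) at 0.10 and Vcam1 at 0.19.

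Outside the list, 13243 named genes were ranked by how closely they followed the mean of the 34 genes over the 24 mice within diets. The 10 closest were Cdh13 (r = 0.904), Dab2ip (0.886), Fmo5 (0.883), Clic5 (0.876), Rhbdl1 (0.875), Ramp2 (0.868), Adcy6 (0.867), Ppp1r9a (0.866), Kank3 (0.865) and Nedd4 (0.864). Cdh13 encodes T-cadherin, which binds adiponectin on the vessel wall, and Ramp2 encodes a partner of the adrenomedullin receptor in endothelium. Clic5 differed by -0.29 (SE 0.103, limma adjusted p 0.223) and Cdh13 by -0.11 (SE 0.136). Ramp2 at 0.055 and Kank3 at 0.081 were the 2 of these 10 genes with a difference above 0.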

How the data were processed

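RNA of epididymal fat from 24 mice was hybridised to 24 Agilent 2-colour arrays of 62976 spots, with each mouse in Cy5 and the common pool in Cy3, per the labels' protocols. Per the file headers, the deposited files hold spot intensity extracted with Agilent Feature Extraction 10.7.3.1, with median signals, processed signals already corrected by the authors, and flags per spot. Mean signals had been planned as input, and the files' median signals were used in their place. The authors' deposited value table holds log2 values of 26384 features. It followed the log2 Cy5 signal of its own arrays (r at least 0.990), not the ratio (r at most 0.0692), and every column has a median of 8.04. Its normalization is not given in the sources used here, and it served as an alternative.

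In limma 3.58.1 under R 4.3.3, background was corrected by normexp (offset 50) and ratios by loess within arrays, control spots and outlier-flagged spots were left out, and spots of a probe were averaged (55681 probes). A probe well above background in Cy5 on 6 or more of 24 arrays was kept (26271 probes), and the brightest kept probe stood for a gene. Accessions were named through a RefSeq table, which gave 27235 probes 1 symbol and 28446 none. The file headers name build mm9, and promoter coordinates are GRCm38.p6 from RefSeq. The genes had 43 probes, of which 41 were kept. Diets were compared with lmFit and eBayes over all 22322 features, with Benjamini-Hochberg adjustment. No array pair had identical signals (0 pairs). The number of arrays limits the precision: on simulated data made from these arrays (21980 features, 200 changed, 10 runs), the same test recovered 18.1% of changes of 0.25 on the log2 scale, 82.8% of 0.5 and 98.9% of 1, with a median of 1 false call. The changed features were drawn from the whole array, where the median standard error (0.0798) was below that of the endothelial genes (0.102). Arrays were shuffled across slides, and recovery for the endothelial genes was not simulated. The labels name separate animals. Permutation tests drew 100000 resamples. A test of Prox1 against Cdh5 had been planned next to that of Flt4 against Kdr and could not be made, since Prox1 was not above background. Alternatives covered the background correction, the normalization, the filter, the probe rule, slide terms, array weights and single mice left out.

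The genes, marker lists and pathway lists were chosen with earlier results of these data known. The text names every endothelial gene, the 2 genes of lowest p in each pathway list with a fixed set of ligands and markers, and the 10 genes that most closely follow the mean of the endothelial genes.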

Additional observations from a re-analysis of the deposited data

How the results depend on the processing

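The results were recomputed under 38 alternatives, of which 24 left out 1 mouse each, and 24 of the 34 endothelial genes kept the sign of their difference in all of them. Some alternatives, named below, could not turn a sign. The count of genes at a limma adjusted p under 0.05 was 0 except with array weights (1) and without Ctrl NR mouse 117 (1), so it ranged from 0 to 1 over the single omissions. Features of the whole array at that level numbered 253 with array weights, 4 without slide 1 and 0 to 215 over the single omissions. The count of genes lower at an unadjusted p under 0.05 was 2 with median centring, 18 with array weights, 16 without slide 1, 1 without slide 5 and 4 to 12 over the single omissions, against 0.918%, 10.2%, 7.95%, 3.97% and 5.96% to 9.05% of all features under the same settings. The count higher at that level was 0 with median centring, the value table or slide as a fixed block, 2 with the authors' processed signals and 0 to 2 over the single omissions. The median difference of the genes ran from -0.24 to -0.054, and from -0.17 to -0.10 over the single omissions.

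Flt4 minus Kdr lost its threshold with median centring (0.42, p = 0.0517), no background subtraction (0.25, p = 0.0938), processed signals (0.27, p = 0.379), the value table (0.19, p = 0.167), the mean of a gene's probes (0.19, p = 0.147), labels shuffled only within slides (the same 0.28, p = 0.0533), the other Kdr probe (0.10, p = 0.581) and without slide 5 (0.15, p = 0.303), all by permutation. Without slide 1 it was 0.36 (p = 0.00741). Over the single omissions it ran from 0.24 to 0.35, with 10 of 24 under the threshold.

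Signs turned for Pecam1 with median centring (-0.023), array weights (-0.027) and without slide 1 (-0.029), for Tm4sf1 with median centring (-0.10), processed signals (-0.014), array weights (-0.015) and without slide 1 (-0.034), for Vwf with no background subtraction (0.0097), and for Aplnr with no background subtraction (0.025), processed signals (0.027), the value table (0.011) and slide as a random block (0.0066). They also turned for Sox17 with processed signals (0.015), the mean of probes (0.017) and without slide 5 (0.0028), and without slide 5 for Nos3 (0.017), Ecscr (0.027), Ptprb (0.051) and Notch4 (0.022). Over the single omissions the range was -0.0034 to 0.061 for Pecam1, -0.038 to 0.043 for Aplnr, -0.055 to 0.0014 for Flt4, -0.058 to 0.054 for Vwf, -0.0020 to 0.11 for Tm4sf1 and -0.082 to 0.011 for Notch4. The causes were not tested. Quantile normalization between arrays leaves the ratios as they are and is no check. An intensity trend with robust eBayes changes the test and not the difference. The alternative filters on dim probes left the differences of these genes as they were. None of these settings could turn a sign. The other Kdr probe and the omissions of slides 1 and 5 were added after seeing the data. The permutation tests of the endothelial genes against the macrophage mean were not among the planned tests either. No paired analysis was possible because the animal numbers of the labels are not shared between the diets. Dim spots of Flt4, Dll4 and Clec14a limit their values.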

Other observations

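At the opposite end from the genes that followed the endothelial mean stood genes with correlations below 0 within diets, named here after their values were seen. Mad2l1 and Bub1, which act in the spindle checkpoint of dividing cells, had r = -0.922 and -0.902 with the mean of the 34 endothelial genes over 24 mice, and Aspm, another spindle gene, had -0.894. Got1, an aminotransferase of the cytosol, had -0.908 and Ccl3, a chemokine made by macrophages, had -0.888. Hpf1 (-0.894), Mogs (-0.890) and B4galt6 (-0.888) ranked between Aspm and Ccl3. Zranb3 (-0.877) and Akr1b8 (-0.875) came next. The differences between diets, No NR minus Ctrl NR, were 0.21 for Mad2l1 (SE 0.182), 0.14 for Bub1 (SE 0.0856), 0.26 for Aspm (SE 0.158), 0.062 for Got1 (SE 0.165) and 0.27 for Ccl3 (SE 0.215), with limma adjusted p from 0.469 to 0.894. They were 0.050 for Hpf1, 0.020 for Mogs, 0.063 for B4galt6, 0.74 for Zranb3 (SE 0.467) and 0.22 for Akr1b8, with limma adjusted p from 0.496 to 0.959.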
